A study of Mus musculus with 12 samples.

Results

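Small RNA libraries made with 2 guides against Mtdh were compared with libraries made with a control guide, across every class of non-coding RNA in the tables. The comparison used 8 of the 12 libraries of the series, chosen by their titles. The 4 control libraries carried sgGal4-4 (replicates 1 to 4), a guide named for a yeast transcription factor that mice lack. The 4 libraries labelled Mtdh knockdown came from sgMtdh-1 (libraries 1-1 and 1-2) and sgMtdh-2 (libraries 2-1 and 2-2). All of them were stem-like medulloblastoma cells from mouse cerebellum with the genotype Math1-Cre; SmoM2, so the controls carry the same tumour-driving allele. The design text names CRISPR without the effector, and the labels give neither the time after the guides nor whether the libraries of a guide came from separate cultures. Each p-value below therefore rests on the spread among libraries, which could be technical.

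SmoM2 is an activated form of Smoothened, the transducer of Hedgehog signals, and Math1-Cre acts in cerebellar granule neuron precursors, where Hedgehog-driven medulloblastoma begins. Mtdh encodes metadherin, a protein that binds the nuclease SND1 and has been found with the complex that loads small RNAs onto their targets. A miRNA is cut from a hairpin precursor and guides silencing of messenger RNAs through its seed, bases 2 to 8. C/D box and H/ACA box small nucleolar RNAs guide methylation and pseudouridylation of ribosomal RNA, and Cajal body RNAs do the same for spliceosomal RNAs. RNase P RNA is the catalytic RNA of the enzyme that trims the 5′ ends of transfer RNA precursors, and the related RNase MRP RNA serves an enzyme that cuts the ribosomal precursor.

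The tables gave raw counts for 4529 non-coding RefSeq rows, or 4044 after identical rows of a symbol were counted once. Total counts were 33737 to 64366 in control libraries. In the Mtdh libraries they were 22785 (1-1), 152115 (1-2), 148611 (2-1) and 32967 (2-2), so no control library reached the depth of the 2 deepest Mtdh libraries. Counts on the transcript of Mtdh itself, a protein-coding gene, were not analysed here, and the depletion of the target is therefore not shown. Libraries of the same guide differed more than controls did: chi-squared per degree of freedom, which grows with depth, was 21.1 between the sgMtdh-1 libraries and 33.4 between the sgMtdh-2 libraries, against 2.90 to 4.06 between pairs of controls.

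The makeup of the libraries differed in its largest component. Rn45s, the long precursor from which most ribosomal RNAs are cut, held 53.8% to 56.2% of counts in the controls, and 68.4%, 75.8%, 78.1% and 66.0% in Mtdh libraries 1-1, 1-2, 2-1 and 2-2, with no overlap. The deepest Mtdh libraries, 1-2 and 2-1, had the highest Rn45s shares, and the part of depth in this was not tested. Counts on this row do not tell the precursor from the mature ribosomal RNAs it contains. In bulk samples, fewer cells of a type and less RNA per cell cannot be told apart. The other classes were therefore also set against the counts that lay outside Rn45s.

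RNase P RNA had the largest ratio between the groups on that scale, and other long rows and RNase MRP RNA the largest differences in points. Its share of counts outside Rn45s was 0.547%, 0.657%, 0.432% and 0.436% in the controls and 5.20%, 4.98%, 2.30% and 4.34% in the Mtdh libraries. The means were 0.518% ± 0.107 and 4.21% ± 1.32 (SD, n = 4), a ratio of 8.12 (two-sided exact permutation p = 0.0286, adjusted 0.0643 over 9 classes). The lowest p that 4 against 4 libraries can give is 0.0286, so no class could pass 0.05 after adjustment unless most did. RNase MRP RNA held 30.1% ± 0.590 in controls and 23.9% ± 2.22 in Mtdh libraries, and all 4 Mtdh libraries lay below the controls (exact permutation p = 0.0286, adjusted 0.0643, n = 4). Cajal body RNAs held 4.04% ± 0.269 and 3.20% ± 0.384, again with no overlap (exact p = 0.0286, adjusted 0.0643). Most of this share was a single row, Scarna6, which did not pass when rows were tested. It had 510, 766, 745 and 1107 counts in the controls and 204, 790, 945 and 325 in Mtdh libraries 1-1, 1-2, 2-1 and 2-2. The class without Scarna6 was not tested. Other long and unclassified rows, which hold long non-coding RNAs, non-coding isoforms of protein-coding genes and pseudogenes, held 10.9% ± 0.450 and 18.6% ± 3.66, with every Mtdh library above every control (exact p = 0.0286, adjusted 0.0643). Much of that rise lay in a single row, Gm10857. It had 177, 214, 187 and 298 counts in the controls, of 14801, 21751, 19457 and 28202 outside Rn45s. In the Mtdh libraries it had 437, 921, 2167 and 950, of 7208, 36738, 32513 and 11225. The class without Gm10857 was not tested.

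The remaining classes overlapped between the groups. miRNAs held 16.0% ± 0.358 of counts outside Rn45s in controls and 16.7% ± 3.87 with Mtdh guides (exact permutation p = 0.971, n = 4), with 22.4% in library 2-1 and 14.1% to 15.6% in the other 3. A single precursor, Mir30d, sets much of this share. It held 1231 of 2369, 2024 of 3547, 1537 of 3010 and 2491 of 4544 miRNA counts in the controls. In Mtdh libraries 1-1, 1-2, 2-1 and 2-2 it held 645 of 1015, 2635 of 5374, 5256 of 7287 and 1248 of 1749. The share of the other miRNAs was not tested. C/D box RNAs held 29.9% ± 0.197 and 25.1% ± 3.65 (exact p = 0.143), where library 1-2, at 30.2%, lay among the controls. H/ACA box RNAs held 1.22% and 1.04% (exact p = 0.600), and host transcripts of small nucleolar RNAs 6.78% and 6.59% (exact p = 0.857). Other small structural RNAs held 0.580% and 0.735% (exact p = 0.400).

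**Figure D1:**
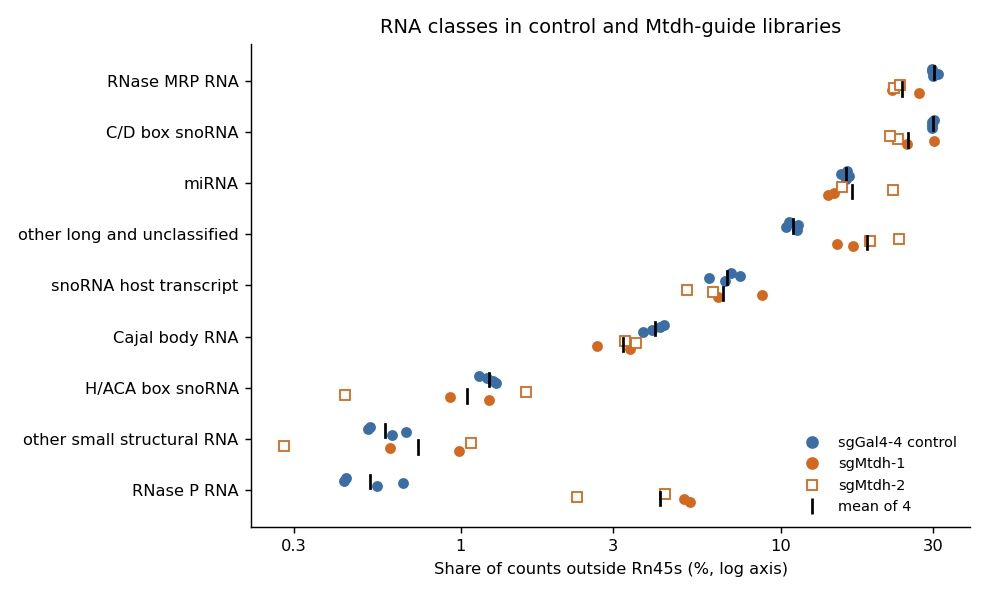
Share of the counts outside Rn45s (percent, log axis) held by each of 9 RNA classes; each point is 1 library and the black bar is the mean of 4. The Mtdh-guide libraries lie apart from the controls for RNase P RNA and other long rows (above) and for RNase MRP and Cajal body RNAs (below), and overlap them for the other 5 classes.

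With Rn45s kept in the total, the same classes gave another picture. The miRNA share of all counts was 7.15% ± 0.162 in controls and 4.55% ± 0.761 with Mtdh guides, and the C/D box share 13.4% ± 0.288 and 6.93% ± 1.24 (each exact permutation p = 0.0286, adjusted 0.0429 over 9 classes, n = 4). Cajal body RNAs, RNase MRP RNA and host transcripts were also lower in this measure, and RNase P RNA higher, each with an adjusted p of 0.0429. Outside Rn45s the miRNA difference, Mtdh minus control, was 0.702 points, and it turned to -1.21 points without Mtdh library 2-1.

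Single rows were tested with edgeR's quasi-likelihood test on counts scaled by TMM, a factor that sets the bulk of rows to no change. The test used all 12 libraries for its spread, and 147 rows passed the filter on low counts. Of these, 12 were higher with Mtdh guides (8.16% of rows) and 4 lower (2.72%), together 16 (10.9%), at a Benjamini-Hochberg adjusted p under 0.05. The 12 higher rows stand for 11 symbols, since 2 isoforms of B230208H11Rik share their reads. All 16 had no overlap between groups, against 15 rows wholly above the controls (10.2%) and 15 wholly below (10.2%) among all tested. Only 7 of the 12 higher rows and all 4 lower rows would have passed the filter on the 8 libraries alone. Without the Miat libraries, 10 of 102 rows were higher and 5 lower. The guide was not a term of this fit: with guide as a random effect in limma-voom no row passed, and 11 had an unadjusted p under 0.05.

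Over all classes 16 of 147 rows (10.9%) were called. Whether the share of calls differed between classes was not tested. Both tested RNase P rows, which may share reads, were higher, 1 of 5 Cajal body rows was higher and 1 lower, and 1 of 31 miRNAs was higher and 3 lower. Of 42 other long rows 7 were higher and 0 lower, though most of these 7 would have failed the filter without the Miat libraries. Among the 7 are the 2 rows of B230208H11Rik that share their reads. In edgeR 0 of 52 C/D box and 0 of 8 H/ACA box rows passed, where 6 and 1 had an unadjusted p under 0.05; DESeq2 called 2 C/D box rows, both higher, and limma-voom 0. The median log2 fold change was 0.91 over the other long rows, -0.23 over C/D box rows and -0.60 over miRNAs, beside 0.01 over all 147 rows. Of the 147 rows, 102 would have passed the filter on the 8 libraries alone. The medians include the rest, among them many of the other long rows, so the 0.91 too rests on a filter that included the Miat libraries.

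**Figure D2:**
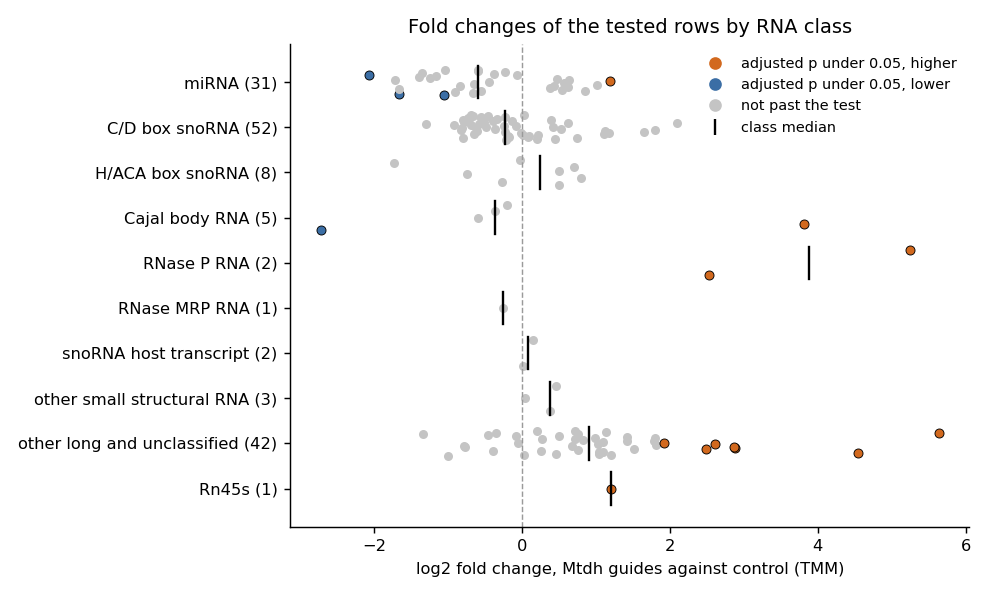
log2 fold change of each tested row, Mtdh guides against control after TMM scaling, by RNA class with the number of rows in brackets; orange and blue points passed the test (12 higher, 4 lower) and black bars are class medians. Both RNase P rows and 7 of the 42 other long rows are orange, and 3 of the 4 blue points are miRNAs. The points and medians include rows that passed the filter only with the Miat libraries, many of them other long rows.

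The choice of library total set where the middle of the rows lay. With library totals that include Rn45s in place of TMM, the median log2 fold change over the 147 rows was -0.82, and 7 rows were higher and 39 lower, among them 20 C/D box rows and 11 miRNAs. With totals that leave out Rn45s the median was -0.09, with 11 higher and 5 lower. With Rn45s left out and TMM applied to the rest it was 0.06, with 11 higher and 3 lower of 142, and upper-quartile factors gave 9 and 5. All 12 higher and 4 lower rows kept their sign under the totals with Rn45s. Fold changes below are relative to the bulk of rows unless another scale is named.

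**Figure D3:**
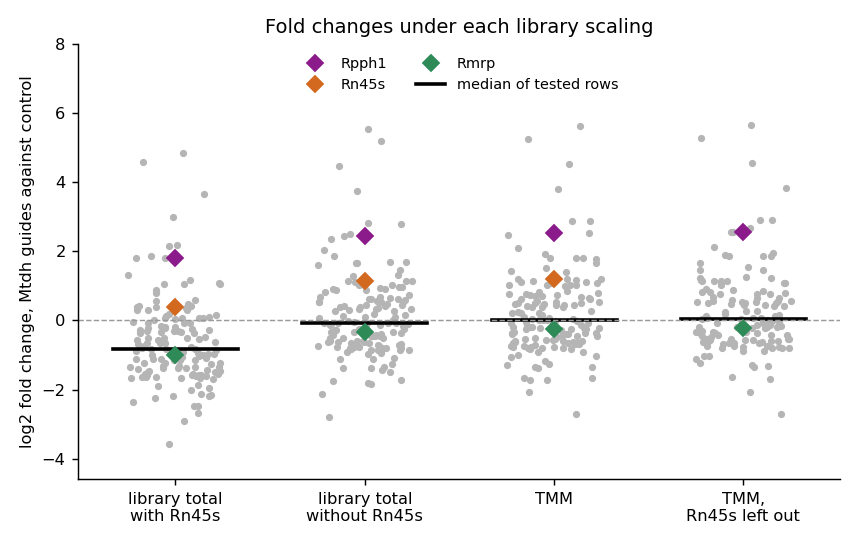
log2 fold change of every tested row (grey points, spread sideways at random) under 4 library scalings, with the median as a black bar and 3 RNAs as diamonds. The median lies at -0.82 with totals that include Rn45s and within 0.09 of zero under the other 3, while Rpph1 lies above and Rmrp below zero in each.

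RNase P RNA gave the call with the lowest p. Rpph1, the RNase P RNA gene, lies on chromosome 14 (GRCm38, chr14:50807447-50807771, minus strand). Its level was 1517, 1823, 1209 and 1242 CPM (TMM-scaled counts per 1000000) in the controls and 9268, 9224, 4694 and 10199 in Mtdh libraries 1-1, 1-2, 2-1 and 2-2. All Mtdh libraries lay well above all controls, and library 2-1 was the lowest of them. The means were 1448 ± 286 and 8346 ± 2476 (SD, n = 4), 5.76-fold, and the log2 fold change was 2.52 ± 0.34 (SE; edgeR adjusted p = 0.00023). The counts behind these values were 71 to 133 in the controls and 230 to 1114 with Mtdh guides.

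Rprl3, annotated as an RNase P RNA-like gene (chr8:3803125-3803359, minus strand), rose further. It had 214, 137, 14.6 and 174 CPM in the controls, from 1 to 15 counts a library, and 5802, 5912, 3033 and 5670 with Mtdh guides. The log2 fold change was 5.24 ± 1.12 (SE; edgeR adjusted p = 0.0045). Both rows had already passed in these libraries, so their ratio is a description and not separate support. Within a library, 9.21 ± 6.16 counts on Rprl3 stood beside every 100 on Rpph1 in the controls and 61.7 ± 4.18 in the Mtdh libraries, not corrected for length (exact permutation p = 0.0286, n = 4). The other copies did not share this: Rprl1 had 1 count in the 8 libraries together and Rprl2 had 1.

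Rpph1 and Rprl3 are near-identical in part, and how reads with several positions were assigned is not given in the sources used here, so the split between them is uncertain. Over 279 aligned bases of the GENCODE transcripts 88.2% were identical, against 87.8% for Rprl2 and 83.4% for Rprl1. The longest run shared with Rpph1 was 32 bases in Rprl2 and 27 in Rprl1, also longer than a miRNA. The longest shared run of Rpph1 and Rprl3 was 37 bases, and it is shown because a short read from it fits both genes. The lines give bases 88 to 166 of each transcript (chr14:50807602-50807680 and chr8:3803193-3803271, both on the minus strand of GRCm38), with the shared run in capitals.
Rpph1: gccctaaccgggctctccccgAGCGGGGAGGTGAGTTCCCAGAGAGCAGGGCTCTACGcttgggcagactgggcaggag
Rprl3: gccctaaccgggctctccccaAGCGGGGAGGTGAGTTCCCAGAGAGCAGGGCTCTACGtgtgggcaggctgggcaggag

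RNase MRP RNA, from Rmrp (chr4:43492785-43493059), depended on the scale. Its level was 94987, 92388, 84323 and 97317 CPM in the controls and 78694, 67716, 75602 and 86578 with Mtdh guides. Library 2-2 lay above the lowest control, and the log2 fold change was -0.26 ± 0.20 (SE; edgeR adjusted p = 0.45). With totals that include Rn45s it was -1.003 (adjusted p = 0.0035). Counts on Rpph1 per 100 counts on Rmrp were 1.57 ± 0.299 in controls and 10.8 ± 3.21 with Mtdh guides (exact permutation p = 0.0286, n = 4). Rpph1 had already passed, so this too is a description and not separate support. Of a list of RNA polymerase III transcripts, 3 rows were tested: Rpph1 passed, while Rmrp and the vault RNA Vaultrc5 did not. Vaultrc5 had 1356 ± 189 CPM in controls and 1889 ± 1013 with Mtdh guides (log2 fold change 0.46 ± 0.50, edgeR adjusted p = 0.55), and it was below the controls in library 2-1 alone, at 701 CPM.

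Rn45s itself passed the test, at a log2 change of 1.20 ± 0.22 (SE; edgeR adjusted p = 0.0017). Its mean level was 378642 CPM in controls and 872265 with Mtdh guides, 2.30-fold. The adjusted p was 0.13 without control library 1 and 0.097 without control library 2. It was 0.099 without the sgMtdh-1 libraries, 0.16 without the sgMtdh-2 libraries and 0.071 with Mtdh libraries 1-1 and 2-2 alone. With library totals that include Rn45s its log2 fold change was 0.38 (adjusted p = 0.0017).

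Cajal body RNAs changed one by one. Scarna2 rose, Scarna17 fell, and Scarna6, the one with the most counts, did not pass. Scarna2 had 128, 27.4, 14.6 and 92.9 CPM in the controls (1 to 8 counts) and 564, 1018, 1331 and 652 with Mtdh guides (14 to 129 counts). The groups did not overlap, and the log2 fold change was 3.81 ± 0.76 (SE; edgeR adjusted p = 0.0026). Scarna2 counts per 100 on Scarna6 were 0.574 ± 0.475 in controls and 10.6 ± 4.75 with Mtdh guides (exact permutation p = 0.0286, n = 4). Scarna2 had already passed in these libraries, so the ratio is a description and not separate support.

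The Scarna2 row covers 61 bases (chr3:108554342-108554402, minus strand), whereas the GENCODE transcript of the gene has 414. The counts therefore describe bases 350 to 410 of that transcript, near its 3′ end, and say nothing of the rest; those bases are shown since they are all that was measured.
Scarna2: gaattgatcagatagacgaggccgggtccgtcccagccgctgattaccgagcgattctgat

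Scarna17 went down to a few counts. Its level was 299, 233, 233 and 232 CPM in the controls, from 14 to 20 counts, and 40.3, 41.4, 30.9 and 32.6 with Mtdh guides, from 1, 5, 3 and 1 counts. The fitted log2 fold change was -2.72 ± 0.51 (SE; edgeR adjusted p = 0.0017), 6.58-fold lower in the fit. A count of 3 in an Mtdh library corresponds to 24.8 to 121 CPM, so the Mtdh levels were at or near the limit of what these libraries could show. From the summed counts, 10 against 67, the ratio was 0.150 (95% exact interval 0.0688 to 0.293, counting error only). Scarna6 (chr1:87784571-87784818) had 11275 ± 1065 and 8775 ± 1783 CPM, and its log2 fold change was -0.36 ± 0.30 (edgeR adjusted p = 0.45).

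C/D box RNAs, the class with the most tested rows, gave no call in the fit of both guides together, and 34 of 52 had a negative log2 fold change. Its row with the most counts, Snord15a, had 14546 ± 1983 CPM in controls and 12920 ± 2654 with Mtdh guides (log2 fold change -0.17 ± 0.31, edgeR adjusted p = 0.72). Snord67, Snord37 and Snord43 are described since they stood highest, a choice made after their values were seen. Snord67, from an intron of Ckap5, had 726, 260, 524 and 360 CPM in controls and 1692, 2898, 1795 and 1531 with Mtdh guides (log2 fold change 2.10 ± 0.77, adjusted p = 0.11). In the fit with 1 term per guide it passed with both, at 2.34 for sgMtdh-1 (adjusted p = 0.00042) and 1.86 for sgMtdh-2 (adjusted p = 0.0026). Snord37, from the Eef2 gene, had 554 to 1242 CPM in controls and 2015, 5274, 1774 and 2085 with Mtdh guides, and passed with sgMtdh-1 alone (log2 fold change 2.05, adjusted p = 0.0015; with the other guide 1.10 and 0.059).

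Snord43, from the Rpl3 gene, behaved by library and not by guide. It had 1239, 1549, 1428 and 1323 CPM in the controls, 7011 in Mtdh library 1-1 and 10101 in 2-2, but 1052 in 1-2 and 1341 in 2-1. The first pair are the shallow libraries and the second the deep ones. The log2 fold change was 1.80 ± 0.62 over all 4 (edgeR adjusted p = 0.087) and -0.51 with the deep libraries alone. The part of depth in this was not tested.

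Snord67 and Snord37 are printed for comparison with a miRNA further on, with the letters of box C (TGATGA) and of the last box D (CTGA) in capitals. These boxes are bound by the proteins of the methylation complex. Among 94 GENCODE Snord transcripts of 55 to 130 bases, 71.3% had TGATGA in the first 20 bases of the given strand and 97.9% had CTGA in the last 20. The counted rows, chr2:91596081-91596178 for Snord67 and chr10:81178961-81179013 for Snord37, are shorter than the printed transcripts. Box C of Snord37 lies outside its counted row, and the row of Snord67 starts within its box C. The 2 lines are chr2:91596070-91596180 and chr10:81178950-81179013 of GRCm38, both on the plus strand.
Snord67: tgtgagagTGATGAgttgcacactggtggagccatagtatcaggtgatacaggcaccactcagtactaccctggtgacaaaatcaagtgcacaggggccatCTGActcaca
Snord37: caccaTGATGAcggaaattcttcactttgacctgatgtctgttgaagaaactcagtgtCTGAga

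H/ACA box RNAs had 8 tested rows, 4 with a positive and 4 with a negative log2 fold change, and no call. Snora7a, from the Rpl32 gene and also chosen after its values were seen, had 1517, 1535, 1544 and 1602 CPM in the controls and 685, 199, 495 and 554 with Mtdh guides. The groups were far apart, and the log2 fold change was -1.72 ± 0.60 (edgeR adjusted p = 0.089). By guide it passed with both, at -2.02 for sgMtdh-1 (adjusted p = 0.013) and -1.57 for sgMtdh-2 (0.034).

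Host transcripts of small nucleolar RNAs carry the guides in their introns. Gas5, the one with the most counts, had 20505 ± 2207 CPM in controls and 20690 ± 3770 with Mtdh guides, so that the log2 fold change was 0.01 ± 0.25 (edgeR adjusted p = 0.97) and changed sign with the settings. Its span holds the tested row Snord47, so reads of that guide may be counted on it.

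Among miRNAs, Mir92b and both copies of Mir181a fell and Mir677 rose. miR-92b shares its seed with the miR-92a of the Mir17 to Mir92 clusters, and miR-181a is a neural and lymphoid miRNA that comes from 2 loci. Mature sequences are shown for these, from RefSeq (GRCm38.p6), with the seed in capitals; 29 of the 31 tested miRNAs had an entry there. The counts are per precursor and do not separate the arms.
mmu-miR-92b-3p: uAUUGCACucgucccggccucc
mmu-miR-92b-5p: aGGGACGGgacguggugcaguguu
mmu-miR-181a-5p: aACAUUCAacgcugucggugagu
mmu-miR-181a-1-3p: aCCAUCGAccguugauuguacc
mmu-miR-181a-2-3p: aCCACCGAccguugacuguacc
mmu-miR-677-5p: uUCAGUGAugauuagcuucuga
mmu-miR-677-3p: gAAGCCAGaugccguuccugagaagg

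Both Mir181a precursors give the same 5p sequence, so a read from that arm fits both loci. Mir181a-1 (chr1:137966455-137966541) had 2542, 1810, 1923 and 2287 CPM in the controls and 766, 1118, 1269 and 945 with Mtdh guides. Each Mtdh library lay below each control, and the log2 fold change was -1.05 ± 0.32 (edgeR adjusted p = 0.043). Mir181a-2 (chr2:38852735-38852810) had 1260, 1001, 539 and 1068 CPM against 121, 431, 289 and 326, for which the log2 fold change was -1.66 ± 0.42 (adjusted p = 0.019). Mir181a-1 lost its call without control 1, 3 or 4, Mtdh 1-1 or 2-2, or Miat 6-1 (adjusted p 0.051 to 0.15), and Mir181a-2 without control 4 or Mtdh 1-1 or 2-2 (0.052 to 0.071). Counts on Mir181a-2 per 100 on Mir181a-1 were 44.9 ± 11.8 and 27.9 ± 10.5, a difference that did not pass (exact permutation p = 0.0857, n = 4).

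Mir92b (chr3:89227116-89227198) had 406, 576, 452 and 499 CPM in the controls and 80.6, 232, 61.9 and 32.6 with Mtdh guides. Its log2 fold change was -2.07 ± 0.61 (edgeR adjusted p = 0.040), on 135 counts in the controls and 37 in the Mtdh libraries. The call was lost without any 1 of the controls or of Mtdh 1-1, 2-1 and 2-2 (adjusted p 0.0501 to 0.13). By guide it was -1.44 for sgMtdh-1 (adjusted p = 0.19) and -3.17 for sgMtdh-2 (0.012), and the difference between the guides did not pass (adjusted p = 0.41). Mir92-1, of the Mir17 to Mir92 cluster, had 328 ± 39.9 and 296 ± 182 CPM (log2 fold change -0.07 ± 0.43, adjusted p = 0.93). Of the 15 members of the Mir17 to Mir92 clusters listed, 2 were tested, with 0 higher and 0 lower.

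Mir677 (chr10:128085286-128085363, within Atp5b) was the 1 miRNA called higher over both guides in the fit of all classes. It had 876, 905, 991 and 743 CPM in the controls and 2055, 2848, 1413 and 1727 with Mtdh guides. The log2 fold change was 1.20 ± 0.33 (edgeR adjusted p = 0.031), and 0.43 (0.47) with totals that include Rn45s. By guide it passed with sgMtdh-1 (1.49, adjusted p = 0.0015) and not with sgMtdh-2 (0.83, adjusted p = 0.058). Without any 1 of the controls, of Mtdh 1-1, 1-2 and 2-2 or of Miat 96-1 the adjusted p of Mir677 was 0.056 to 0.29. GENCODE annotates a small nucleolar RNA over the same locus. The 5p sequence holds both UGAUGA (bases 6 to 11) and CUGA (bases 19 to 22), the letters shown above in Snord67 and Snord37; of 1674 distinct mature mouse miRNAs in the table, 2 hold the pair in that order (0.119%). The counts do not tell a miRNA from a fragment of such an RNA.

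Mir30d, the miRNA with the most counts, did not pass in the fit of all classes. It had 26294, 27748, 22392 and 28918 CPM in the controls, 25989 and 21818 in the sgMtdh-1 libraries, and 54218 and 40666 in those of sgMtdh-2. The sgMtdh-1 libraries lay within or below the controls and the sgMtdh-2 libraries above them. The log2 fold change was 0.44 ± 0.28 over both guides (edgeR adjusted p = 0.36), 0.85 for the sgMtdh-2 libraries (adjusted p = 0.010) and -0.14 for sgMtdh-1 (0.75), and the difference between the guides did not pass (0.12).

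Neural marker miRNAs had a lower summed level with Mtdh guides, which was not tested as a sum. The summed level of 12 listed precursors was 3802 to 5319 CPM in controls and 1370 to 2607 in Mtdh libraries. Of 7 tested, 2 were lower (the Mir181a copies, which make up most of that sum) and 0 higher. Beside this, 3 of 31 tested miRNAs, these 2 among them, and 2.72% of all rows were called lower. The median log2 fold change of the 7 was -1.16, beside -0.60 over the 31 tested miRNAs. The Mir181a copies share their 5p sequence and had already passed, so the lower sum in large part repeats those calls and is not separate support. The 2 tested copies of Mir7 had positive log2 fold changes and did not pass. The 3 copies of Mir9, a miRNA of neural progenitors, had 365 to 378 CPM on average in controls and 138 to 158 with Mtdh guides. Their log2 fold changes were -1.25 (Mir9-1), -1.39 (Mir9-2) and -1.16 (Mir9-3), with edgeR adjusted p of 0.17, 0.066 and 0.23, and the copies share their mature sequence. The 3 Mir124a precursors, which mark differentiated neurons, had 0 counts in all 8 libraries. Marker miRNAs of other cells were at or near 0: oligodendrocyte, immune, endothelial, mesenchymal and muscle lists had at most 6 counts in any library, and none was tested. Mir142 and Mir223 of blood cells, Mir338 of oligodendrocytes and Mir206 of muscle had 0 counts in all 8.

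When miRNAs were tested among themselves, with TMM factors from miRNA rows alone, 5 of 29 were higher and 2 lower. On that scale Mir30d passed (log2 fold change 1.01, edgeR adjusted p = 0.037), Mir677, Mir92b and Mir181a-2 still did, and Mir181a-1 no longer did (-0.53, adjusted p = 0.094).

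Long RNAs, 42 of the 147 tested rows, held 7 of the 16 calls. Of these, only Gm10857 and Gm20125 would have passed the filter on the 8 libraries alone. Serf2, 5730488B01Rik, Atp2a2 and both rows of B230208H11Rik would not. The count of 7 therefore rests on a filter that included the Miat libraries. Of the 42 rows, 20 were long non-coding RNAs (5 higher), 13 non-coding isoforms of protein-coding genes (2 higher) and 9 pseudogenes (0 higher), and none of them was lower. A small RNA library measures short pieces of such transcripts, so these values describe fragments and not the level of the whole transcript.

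Gm10857, a long non-coding RNA (chr2:6132869-6140570), had the most counts of those that rose. It had 3781, 2934, 2724 and 3459 CPM in the controls and 17608, 7626, 22354 and 30956 with Mtdh guides. The lowest Mtdh library was above the highest control, and the log2 fold change was 2.61 ± 0.42 (edgeR adjusted p = 0.00082), from 876 counts in controls and 4475 with Mtdh guides. GENCODE places the processed pseudogene Gm13384 on the opposite strand within this span, and whether counting used the strand is not given in the sources used here.

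The non-coding isoform of Serf2 and 5730488B01Rik were almost absent in controls, and neither would have passed the filter without the Miat libraries. The Serf2 row (chr2:121449198-121453420) had 0, 1, 0 and 3 counts in the controls and 5, 99, 114 and 26 with Mtdh guides. Summed over libraries, the rate with Mtdh guides was 61.3 times that of controls (23.6 to 227, a 95% exact interval for counting error only), and the fitted log2 fold change was 5.63 ± 1.03 (edgeR adjusted p = 0.0017). Serf2 encodes a small protein linked to protein aggregation, and its coding transcript was not analysed here. 5730488B01Rik (chr4:44702800-44705110, opposite to the B cell factor gene Pax5) had 1, 1, 1 and 2 counts in the controls and 6, 44, 93 and 6 with Mtdh guides. Its log2 fold change was 4.54 ± 0.81 (adjusted p = 0.0017), and its summed rate was 29.9 times that of controls (12.5 to 93.6).

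The other long rows that rose were nearer the threshold. Gm20125 (chr10:16951094-17095782) had 151 to 262 CPM in controls and 484, 1101, 908 and 554 with Mtdh guides (log2 fold change 1.92 ± 0.59, edgeR adjusted p = 0.043). B230208H11Rik (chr10:12916646-12923127) had 0, 110, 0 and 23.2 CPM in controls and 403, 182, 217 and 326 with Mtdh guides (2.88 ± 0.82, adjusted p = 0.036). The non-coding isoform of Atp2a2 (chr5:122453513-122502225), the gene of a calcium pump of the endoplasmic reticulum, had 46.4 to 85.4 CPM and 403, 99.4, 196 and 847 (2.49 ± 0.69, adjusted p = 0.033). Its high values lay in the shallow libraries 1-1 and 2-2, and with the deep libraries alone the log2 fold change of Atp2a2 was 0.89 (adjusted p = 0.59). Leaving out 1 library ended these calls often: Gm20125 without any control, any Mtdh library or Miat 96-1 (adjusted p 0.074 to 0.24), B230208H11Rik without control 1, 3 or 4, any Mtdh library or Miat 96-1 (0.053 to 0.17), and Atp2a2 without any control or Mtdh 1-1 or 2-2 (0.074 to 0.16).

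Of 15 listed nuclear long non-coding RNAs 3 were tested, each with a positive log2 fold change (median 0.72, beside 0.91 over the other long rows), and 0 passed in edgeR. Kcnq1ot1 and many of the other long rows would not have passed the filter without the Miat libraries. Malat1, a nuclear speckle RNA, had 1666, 1193, 1136 and 1904 CPM in controls and 1169, 1996, 2104 and 3063 with Mtdh guides (0.50 ± 0.47, edgeR adjusted p = 0.52). The sign turned with totals that include Rn45s, to -0.27. Kcnq1ot1, the antisense RNA of an imprinted domain, had 150 ± 56.3 and 295 ± 98.6 CPM (0.99 ± 0.48, adjusted p = 0.23). Miat, which the other guides of the series target, had 0, 1, 1 and 1 counts in controls and 0, 0, 2 and 0 with Mtdh guides. Terc, the RNA of telomerase, had 1 count in all.

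**Figure D4:**
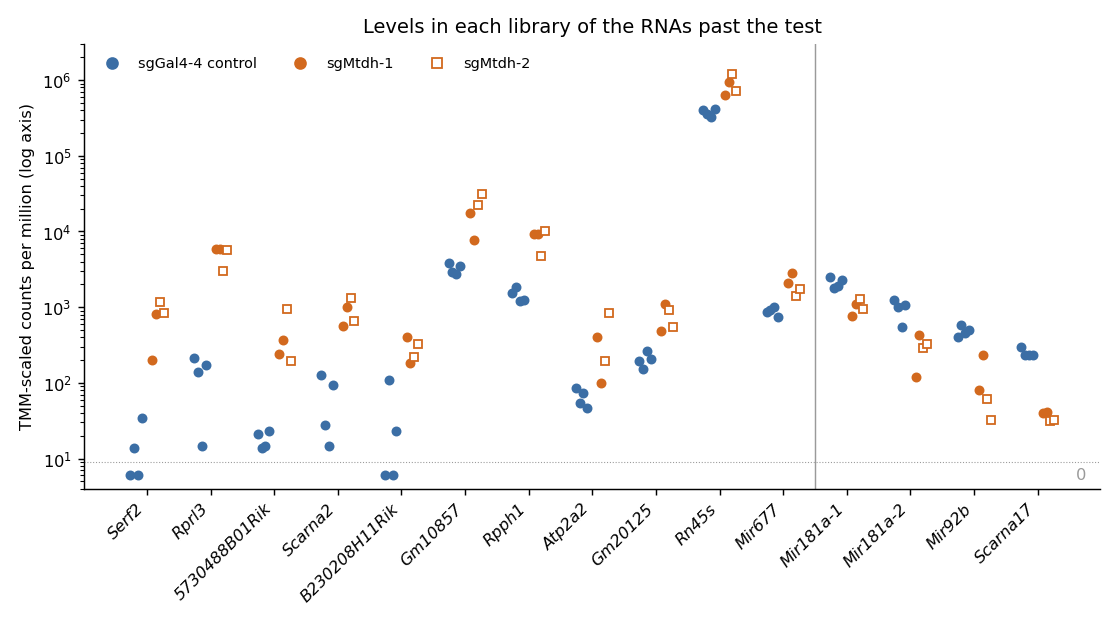
Level in each library (TMM-scaled counts per 1000000, log axis; 0 is drawn below the dotted line) of the 15 RNAs past the test, ordered by log2 fold change, with those higher left of the vertical line and those lower right of it. Values divide by a TMM-scaled total and so can pass 1000000, as Rn45s did in library 2-1; for each RNA all 4 Mtdh libraries lie on the same side of the controls.

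Each guide was also set against the same 4 controls, so the 2 comparisons share their control libraries. With sgMtdh-1, 11 rows were higher (7.48%) and 5 lower (3.40%). With sgMtdh-2, 19 were higher (12.9%) and 8 lower (5.44%). Of the rows, 12 passed in the same direction with both, and 10 of the 16 rows called over both guides passed with each. These counts come from the fit with 1 term per guide, whose spread is that between libraries of a guide. In the fit by group, the sgMtdh-1 libraries alone gave 2 higher and 1 lower, and the sgMtdh-2 libraries alone 5 and 4. In that fit Rprl3 passed with neither guide alone (edgeR adjusted p = 0.052 and 0.063), nor did Rn45s (0.16 and 0.099). Rpph1 had log2 fold changes of 2.67 and 2.35, Rprl3 of 5.45 and 5.01, Scarna2 of 3.67 and 3.98, and Scarna17 of -2.54 and -2.91 with sgMtdh-1 and sgMtdh-2. Among other long rows 4 were higher with sgMtdh-1 and 11 with sgMtdh-2, 4 of the latter being pseudogenes, of which 0 passed with sgMtdh-1. Of C/D box rows, 3 were higher and 4 lower with sgMtdh-2, and 2 higher and 0 lower with sgMtdh-1.

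The difference between the guides was itself tested. In the edgeR fit, 0 of 147 rows passed (0% called), with 16 at an unadjusted p under 0.05; DESeq2 called 1 and limma-voom 1. With 2 libraries per guide, the test could miss differences, and the counts per guide do not show that the guides differ. For Gm10857 the log2 fold changes were 1.96 and 3.05 (adjusted p of the difference 0.33), and for Mir677 1.49 and 0.83 (0.41).

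**Figure D5:**
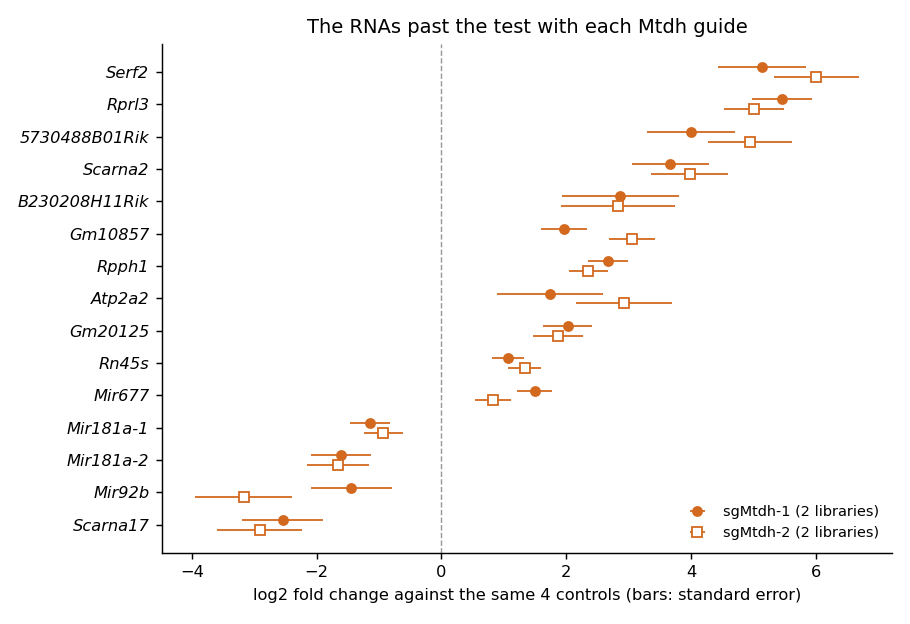
log2 fold change with its standard error for the 15 RNAs past the test, with sgMtdh-1 (filled circles) and sgMtdh-2 (open squares), 2 libraries each, against the same 4 controls. Both guides lie on the same side of zero for each RNA, and the bars of B230208H11Rik are the widest.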

How the data were processed

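The authors deposited, per the file headers, raw counts, FPKM and TPM values per RefSeq non-coding row for each library. Per the submitters' processing notes, STAR was used with GRCm38 and mm10. Not given in the sources used here were the counter, trimming, strand setting and handling of multi-mapping reads. Per the labels' protocols, total RNA came from a column kit and the libraries from a small RNA kit. The deposited counts were used; the authors' FPKM values gave row lengths only, and the deposited TPM values were not used. No per-sample column was left out.

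Identical rows of a symbol (485 of 4529) were counted once. Classes came from symbols, and positions from RefSeq GRCm38.p6. The test was edgeR's two-sided quasi-likelihood test (edgeR 4.0.16, R 4.3.3) with TMM factors, on rows kept by filterByExpr with groups given. The filter was set to a minimum count of 10 and a minimum total of 15, and a tested row could have fewer than 10 counts in a library. All 12 libraries were fitted by group (biological coefficient of variation 0.499), then with 1 term per guide. Benjamini-Hochberg adjustment was applied at 0.05. Mean levels are given with the SD of 4 libraries, and fold changes with the SE of the fit. Class shares and ratios were compared by two-sided exact permutation tests in Python 3.11.15 with scipy 1.17.1. Exact intervals and the floor of 3 counts cover counting error only. Sequences came from RefSeq and GENCODE vM21 tables and were aligned with Biopython. The procedure was tested on simulated counts with the same spread for every row and no guide effect. That test therefore does not cover the larger differences seen between libraries of a guide.

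Rows were named by rule: the called rows with no overlap, those of highest level, the top row of each class, and up to 6 tested members of each list; 4 more (Snord67, Snord37, Snord43, Snora7a) were chosen after their values were seen. The members and lists were chosen with earlier results of these data known. Alternatives were other scalings, filters and tests (DESeq2 1.42.0, limma 3.58.1), other treatment of repeated rows, a replicate block, and each library or guide left out. Leaving out host rows and splitting the Mtdh libraries by depth were added after seeing the data.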

Additional observations from a re-analysis of the deposited data

Results flagged for a closer look

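In 7 of 80 groups of 4 libraries, 1 library stood apart from the other 3 by Dixon's criterion (its gap over the whole range), which chance alone meets in about 1 group in 20. In controls, Kcnq1ot1 was highest in replicate 3, at 233.1 CPM with the next at 128.2, Mir9-3 was lowest in replicate 2, at 287.9 CPM, Scarna17 was highest in replicate 1, at 299.0 CPM, and Scarna6 was highest in replicate 4, at 12851 CPM with the next at 10894. In Mtdh libraries, Mir9-1 was at 0 in library 1-1 (0 counts) with the next at 182.2 CPM, Rprl3 was lowest in library 2-1, at 3033 CPM with the next at 5670, and Snord37 was highest in library 1-2, at 5274 CPM with the next at 2085. Scarna17, Rprl3 and Snord37 kept no overlap between the groups with these libraries in.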

How the results depend on the processing

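All 15 RNAs past the test kept their sign under each setting that could be fitted. Rpph1, Rprl3, Scarna2, Scarna17, Gm10857, Serf2 and 5730488B01Rik (7 of 15) passed in each of 12 fits that left out 1 library; Gm20125 lost its call in 24 of 33 settings, Mir677 and B230208H11Rik in 18, Mir181a-1 in 16, Atp2a2 in 15, Mir92b in 12, Mir181a-2 in 8 and Rn45s in 7. Without the sgMtdh-2 libraries Gm10857, Serf2, Rprl3 and Scarna2 had adjusted p of 0.052, 0.052, 0.052 and 0.062. Rprl3 also lost its call without sgMtdh-1 (0.063), with limma-voom (0.051) and with the deep Mtdh libraries (0.067), 5730488B01Rik with limma-voom (0.063), Scarna17 with no filter (0.057) and Scarna2 with the shallow libraries (0.064). Causes were not tested.

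The last numbers of the library names do not pair libraries by the labels, and deviations of same-numbered libraries correlated at -0.18 to 0.04. With the replicate block, 0 rows were higher and 0 lower (22 at an unadjusted p under 0.05 in edgeR), and 9 were called with sgMtdh-1 and 6 with sgMtdh-2. limma-voom with guide as a random effect gave 0 and 0. Counts of higher and lower rows were 12 and 4 as reported, 7 and 39 with totals that include Rn45s (42 and 60 called with sgMtdh-1 and sgMtdh-2), 7 higher with a minimum count of 5, 1 lower (8 with sgMtdh-2) with no filter, 5 and 2 for miRNA rows only (5 and 5 by guide), 11 lower with 1 term per guide, 5 higher without sgMtdh-1, 2 and 1 without sgMtdh-2, and 6 and 1 with the deep Mtdh libraries. sgMtdh-1 gave 10 with the 8 libraries only. Between the guides 1 was called with DESeq2, 1 with limma-voom, 1 with Rn45s left out and 2 in the robust fit. Leaving out 1 library gave 6 to 14 higher (6 without control replicate 1) and 1 to 6 lower (1 without control replicate 4 or Mtdh 1-1 or 2-2), 12 to 21 with sgMtdh-1, 12 to 36 with sgMtdh-2 and 0 to 5 between them (5 without Mtdh 1-1).

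As shares of all counts, Mtdh minus control was -2.60 points for miRNAs, -6.45 for C/D box RNAs, -0.91 for Cajal body RNAs, -6.76 for RNase MRP RNA, 0.98 for RNase P RNA and -1.24 for host transcripts.

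Signs turned only for RNAs that did not pass. Gas5 was at -0.017 with upper-quartile factors, -0.76 and -0.050 with totals with and without Rn45s, -0.22 with a minimum count of 5, -0.23 with no filter, -0.075 with repeated rows kept, -0.56 without sgMtdh-1, -0.12 without sgMtdh-2, -0.28 with the shallow and -0.081 with the deep libraries, and -0.35 to 0.058 without 1 library. Mir30d was at -0.37 with totals, -0.42 without sgMtdh-2 and -0.012 to 0.54 without 1 library. Vaultrc5 was at -0.19, -0.24 and -0.62 with totals, without sgMtdh-1 and with the deep libraries. Malat1 was at -0.27 with totals and -0.10 without sgMtdh-2, Snord15a at 0.072 with the 8 libraries only, and Snord43 at -0.51 with the deep libraries. Mir92-1 was at 0.20 with the 8 libraries only, 0.36 for miRNA rows only, 0.12 with guide as a random effect, 0.093 without sgMtdh-2, 0.076 with the deep libraries, and -0.69 to 0.090 without 1 library.

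A count of 3 stands for 24.8 to 121 CPM in the Mtdh libraries and 34.8 to 64.1 in the controls, so RNAs below that level could not be compared, and 2591 of 4044 rows had no count in the 8 libraries.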
